A study of Mus musculus with 8 samples.

Results

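Myeloid cells labelled wild type (WT) from irradiated MC38 tumors were compared with cells of the same label from unirradiated MC38 tumors. They were chosen by the droplet counts alone: a barcode of either tumor library entered if it held at least 500 unique molecular identifiers (UMIs, tags that count each captured RNA molecule once) of genes, at least 200 genes, at most 25% mitochondrial UMIs and at least 20 UMIs of the hashtag antibodies, with no fewer UMIs of the WT hashtag (B0301) than of the other (B0302). This gave 6070 of the 32121 cells that pass the same limits in the 4 libraries of the series, 2703 from control tumors and 3367 from irradiated tumors. MC38 is a mouse colon carcinoma line, grown here under the skin of C57BL/6J mice of both sexes aged 8 to 10 weeks. The irradiated group received 1 dose of 20 Gy ionizing radiation (IR) at the tumor, the control group none, and 3 days later CD45+CD11b+Ly6Chi cells were sorted, a phenotype used for monocytic myeloid-derived suppressor cells (mMDSCs). WT mice carried floxed Ythdf2 alleles without Cre, so they are not unmodified mice, and each group was a pool of 5 mice. Every library also held cells of Ythdf2-cKO mice (floxed Ythdf2 with Cre in the Lyz2 locus, active in monocytes, macrophages and neutrophils), marked with the second hashtag. With 1 pool and 1 library per group there is no replicate, so no test was made, and every interval below is a 95% interval that covers counting error only.

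Monocytes leave the blood, enter tumors and there become macrophages or suppressive cells that restrain T cells through arginase, nitric oxide, checkpoint ligands and chemokines. Irradiated cells can release nucleic acids that sensors such as cGAS, RIG-I and MDA5 read, which leads to type I interferon. Interferon binds the receptor pair IFNAR1 and IFNAR2, and a transcription factor complex that includes STAT2 and IRF9 then switches on antiviral genes through a short promoter motif, the interferon-stimulated response element (ISRE). Interferon gamma, made mainly by NK cells and T cells, acts on a partly separate set that includes guanylate-binding proteins and antigen presentation genes.

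The hashtags and the label genes were examined first. The control and irradiated cells held 22052400 and 22408082 gene UMIs in all, with medians of 6667 and 6097 UMIs and 2022 and 1918 genes per cell. The WT hashtag exceeded the other at least 3-fold in 1576 control cells (58.3%) and in 2955 irradiated cells (87.8%), so the label was less clear cut in the control library. Of the barcodes that passed the gene limits, 12707 and 12763, only 5418 and 7844 carried 20 or more hashtag UMIs, and 56 control and 84 irradiated cells had a barcode that also passed in the other tumor library. Ythdf2 itself went against the label. It stood at 57.5 and 55.0 counts per 1000000 UMIs (CPM, here always tumor control first and tumor IR second) in the cells labelled WT and at 353 and 322 CPM in the cells labelled cKO. Whether the reads counted for Ythdf2 fall in the part that Cre removes was not checked, and whether the hashtags name the genotypes correctly was not tested. Lyz2, at the Cre locus, followed the label, with 6763 and 5620.0 CPM in the cells labelled WT against 478 and 426 CPM in those labelled cKO, though reads of Lyz2 and its near copy Lyz1 cannot always be told apart. WT and cKO are therefore used here for what the hashtags say. The markers of the sort were present: Ptprc (CD45) at 512 and 598 CPM, Itgam (CD11b) at 372 and 584 CPM, and Ly6c2 at 449 and 1484 CPM.

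Among 10311 genes with at least 100 UMIs over both groups, 272 (2.64%) were higher and 396 (3.84%) lower after IR by at least 1 on the log2 scale, a 2-fold difference in CPM after adding 1 UMI scaled to depth, here called the limit. These shares stand beside every count of list members called over all cells below. The higher genes included the more abundant ones: at 50 CPM or more in the higher group, 108 genes were higher and 25 lower. The whole counting interval lay past the limit for 182 of the higher and 124 of the lower genes. Over all counted genes the log2 ratio had a median of −0.14, with a 10th percentile of −0.71 and a 90th of 0.39, so CPM placed the typical gene slightly below 0. Scaling by edgeR's TMM factors moved that median to 0.02 and the counts to 370 higher and 230 lower (61.7% higher, against 40.7% with CPM), and a gene or list between these centers has no settled direction. Drawn against each other, the levels in both groups show most type I interferon genes as a band above the upper limit, and the T cell and S phase genes below the diagonal. Differences in summed UMIs can come from fewer cells of a type or from less RNA per cell, and in sums of this kind these cannot be told apart.

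**Figure D1:**
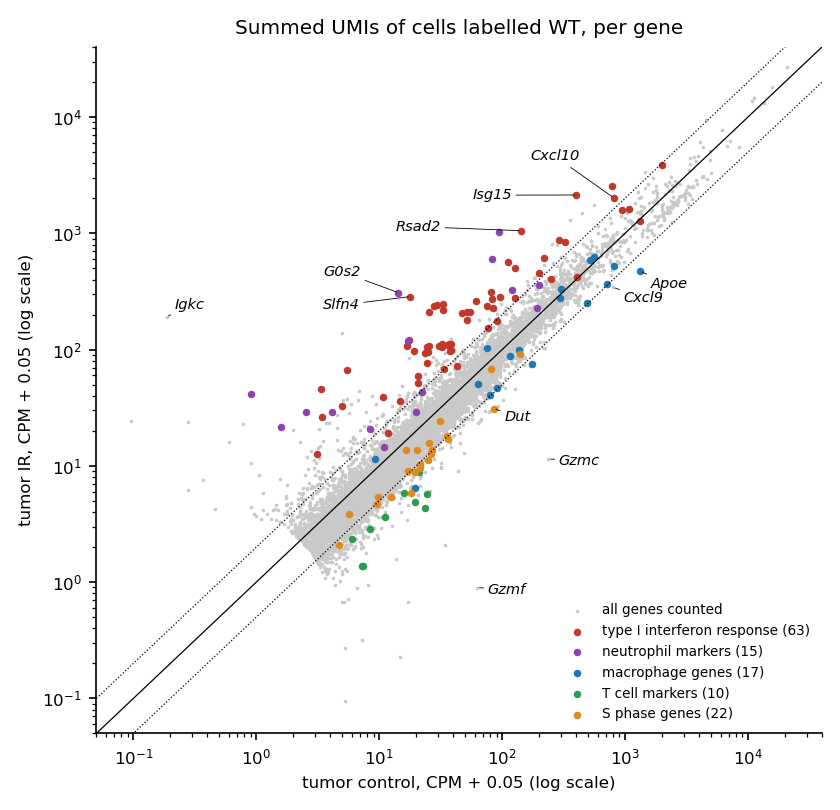
Summed UMIs of each of 10311 genes as CPM + 0.05 in tumor control (x axis, log scale) and tumor IR (y axis, log scale), cells labelled WT; the solid line marks equal levels and the dotted lines a 2-fold difference, and colours mark 5 gene lists with their number of counted genes. Of the 63 type I interferon genes, 53 lie above the upper dotted line and 0 below the lower one.

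The type I interferon response stood out by its breadth. Of 63 counted genes of this list, 53 were higher by the limit, against 2.64% of all genes, 0 were lower and 62 lay above 0. The list's median log2 ratio was 1.73 (1.65 to 1.82, the medians of the members' interval bounds), against −0.14 for all genes. Its genes together made up 11168 CPM of the control cells and 27364 CPM of the irradiated cells. Barcodes with 10 to 100 UMIs, taken as a profile of free RNA, held 15644 and 22137 CPM of the list in the same libraries, and the part of free RNA in the result was not tested. The median ranged from 1.57 to 1.89 over 18 alternative settings.

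The ISRE can be read in the promoters of the leading genes, so 6 that hold it are shown before the values. The windows come from RefSeq promoter sequences (250 bases before to 50 after a start, mouse build GRCm38.p6), are written 5′ to 3′ in the direction of the gene, and carry in capitals the letters GAAANNGAAA or, where the motif lies on the other strand, TTTCNNTTTC. Overlapping matches occur, and for Isg15 the middle of 3 overlapping ones is shown.
Isg15, chr4:156200871-156200900, reverse strand, motif from 72 bases before the start: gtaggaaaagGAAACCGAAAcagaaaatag
Ifit1, chr19:34640794-34640823, forward strand, motif from 85 bases before the start: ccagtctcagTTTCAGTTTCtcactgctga
Ifit3, chr19:34583397-34583426, forward strand, motif from 122 bases before the start: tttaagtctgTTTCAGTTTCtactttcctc
Rsad2, chr12:26456553-26456582, reverse strand, motif from 120 bases before the start: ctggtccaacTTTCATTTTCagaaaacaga
Oas3, chr5:120777715-120777744, reverse strand, motif from 75 bases before the start: gcagggaggaGAAAACGAAAgtgaagggag
Cxcl10, chr5:92349083-92349112, reverse strand, motif from 213 bases before the start: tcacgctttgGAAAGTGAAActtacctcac

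Ifit1 and Ifit3 carried the same 10 capital letters and Oas3 a different spacer. On either strand, 1131 of all 32851 promoter windows (3.44%) and 1079 of 27025 genes (3.99%, counting a gene once if any of its windows did) held the motif. Of the higher type I interferon genes, 43 of 53 matched a promoter and 25 of these (58.1%) held it. Of the 25 counted interferon gamma genes, called or not, 18 matched a promoter and 11 of these (61.1%) held it. The share was therefore not particular to the type I list. Over every higher gene it was 63 of 216 matched (29.2%), over genes within the limit 277 of 7691 (3.60%) and over lower genes 8 of 308 (2.60%). Leaving out both interferon lists, 33 of 167 higher genes (19.8%) still held these letters. A match is a description of letters, and says nothing of binding.

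Within the list, antiviral effectors had the largest ratios. Slfn4 (Schlafen 4, a myeloid interferon-induced gene, chr11:83175186-83190216) stood at 17.8 and 285 CPM (log2 ratio 4.0, 3.85 to 4.15). Ifit3 (chr19:34583531-34588731), whose protein binds viral RNA together with its relatives, stood at 27.8 and 239 CPM (log2 ratio 3.1, 2.98 to 3.23). Ifit1 (chr19:34640871-34650009) and Ifit2 (chr19:34550694-34576419) of the same cluster were close to it, at log2 ratios of 3.02 (2.91 to 3.14) and 2.89 (2.78 to 3.0). The cluster members Ifit1bl1 and Ifit3b went from 5.4 to 66.5 CPM and from 3.31 to 45.5 CPM, and reads of these near copies may be split between them. Rsad2 (viperin, which makes a chain-terminating nucleotide, chr12:26442746-26456452) stood at 142 and 1053 CPM (log2 ratio 2.89, 2.84 to 2.95). Oasl1 stood at 25.4 and 212 CPM (log2 ratio 3.06, 2.94 to 3.19) and Oas3, a synthetase of the RNase L activator, at 24.3 and 105 CPM (log2 ratio 2.11, 1.98 to 2.25). Isg15 (a ubiquitin-like modifier, chr4:156199424-156200818), among the most abundant members, stood at 401 and 2134 CPM (log2 ratio 2.41, 2.38 to 2.44). Isg20, an exonuclease, stood at 32.7 and 219.9 CPM (log2 ratio 2.75, 2.64 to 2.86), and Ifi27l2a at 789 and 2536 CPM (log2 ratio 1.68, 1.66 to 1.71).

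Regulators and signal carriers of the pathway spanned a wide range. Irf7, the factor that amplifies interferon transcription, stood at 112 and 567 CPM (log2 ratio 2.34, 2.28 to 2.40), and Usp18, the protease that removes Isg15 from proteins and damps the receptor, at 16.7 and 107 CPM (log2 ratio 2.68, 2.52 to 2.84). In the receptor's transcription complex, Stat2 had a log2 ratio of 1.6 (1.48 to 1.71), while Irf9 with 0.74 (0.62 to 0.85) stayed within the limit. The cytosolic RNA sensors Ddx58 (RIG-I) and Ifih1 (MDA5) stood at 23.3 and 93.8 CPM (log2 ratio 2.01, 1.87 to 2.15) and at 32.2 and 112 CPM (log2 ratio 1.79, 1.67 to 1.92). Cgas, which reads cytosolic DNA, stood at 11.3 and 23.6 CPM (log2 ratio 1.06, 0.84 to 1.29), whereas its partner Tmem173 (STING) stood at 51.7 and 56.2 CPM, a log2 ratio of 0.12 (0.00 to 0.24). The call of Cgas ended in 3 of 18 alternatives, with a lowest ratio of 0.82. Of 13 counted nucleic acid sensors and adaptors, 6 were higher and 0 lower, with a median of 0.78. The ligands and receptors gave a different picture, with 0 of 8 counted genes past the limit either way and a median of 0.07, which turned negative when each cell counted equally or was thinned. Ifnar1 and Ifnar2 had log2 ratios of 0.25 and −0.02. Ifnb1, the interferon beta gene, was represented by 29 and 8 UMIs and Ifng by 323 and 194 UMIs, of which 57.9% and 69.1% were in 1 cell of each group, and Ifna4 by none.

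A small group of the list did not pass the limit. These 10 genes included Ifitm2 at 1319 and 1272 CPM (log2 ratio −0.05, −0.08 to −0.03), Ifitm1 at 405 and 422 CPM (log2 ratio 0.06, 0.01 to 0.10), Ly6e with a log2 ratio of 0.59 and Ly6a with 0.75. The restriction factors Ifitm3 and Bst2 differed from these relatives, at 1997 and 3858 CPM (log2 ratio 0.95, 0.93 to 0.97), just within the limit, and at 324 and 847 CPM (log2 ratio 1.38, 1.35 to 1.42).

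Per cell the difference was present at every quartile of the distribution. Cells were thinned to 1000 UMIs each, which left out 85 control and 147 irradiated cells with fewer. Control cells then held a median of 9 list UMIs (quartiles 4 and 17) and irradiated cells 25 (13 and 41). The 90th percentile of the control cells was 26, and 251 control cells (9.59%) and 1515 irradiated cells (47.0%) lay above it. Rsad2 was seen in 6.19% of thinned control and 34.3% of thinned irradiated cells, and Isg15 in 21.3% and 61.0%. Slfn4 went from 1.6% to 23.9% of cells, while cells gated as NK cells, with medians of 3083 and 2755.5 UMIs before thinning, showed it in 0 of 172 (which allows up to 1.74%) and in 5 of 81 (6.17%). Without thinning the shares with Slfn4 were 7.73% and 48.6%.

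**Figure D2:**
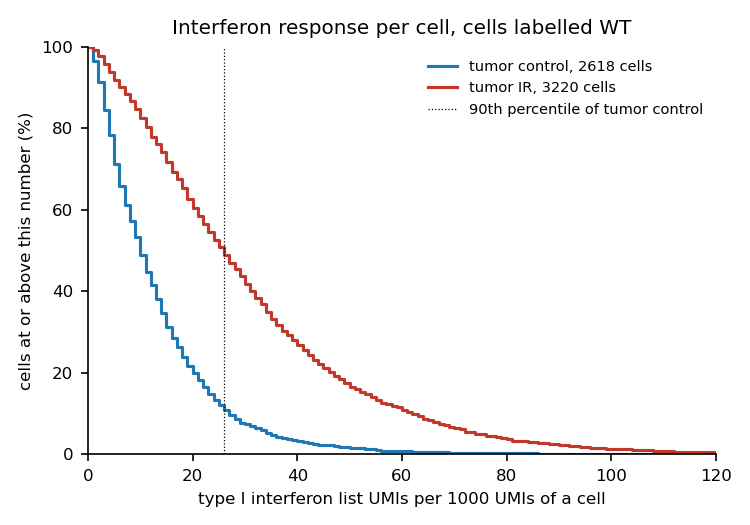
Share of cells labelled WT (y axis, %) that held at least a given number of type I interferon list UMIs per 1000 UMIs (x axis), 2618 tumor control and 3220 tumor IR cells thinned to 1000 UMIs each. The IR curve lies to the right of the control curve from the lowest numbers on, and 47.0% of IR cells against 9.59% of control cells lie above the dotted control 90th percentile of 26.

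To see whether the response sat in 1 kind of cell, cells were gated by the share of their UMIs from marker lists. The gates were set after the data were seen and are ranges rather than types: neutrophil at 1% or more, and stromal, T cell, NK cell, B cell and dendritic cell at 0.2% or more. A cell could enter several gates. The remaining cells were divided at 0.1% of UMIs from C1qa, C1qb and C1qc, 209 control and 284 irradiated cells lying within 2-fold of that division. In cells outside the 6 gates the list's median log2 ratio was 1.68, with 53 of 63 genes higher. It was 1.80 in C1q-high cells (57 of 63 higher) and 1.57 in C1q-low cells (51 of 63). Over all genes, 207 of 7142 were higher and 216 lower in C1q-high cells, and 182 and 170 of 8495 in C1q-low cells. Outside the 6 gates 216 of 9260 were higher, and the median log2 ratio of all genes was −0.08. These values stand beside the list counts and medians given for these cells here and below. The list's median was 1.69 in NK-gated, 1.32 in stromal-gated, 0.98 in dendritic-gated and 0.80 in T-gated cells, with 20, 29, 42 and 11 genes counted. In neutrophil-gated cells it was 2.55 over 48 counted genes, but only 24 control cells stood against 373. Genes there reached the minimum of UMIs mostly through the irradiated cells, such as Ifit1 with 0 and 1069 UMIs. Over all genes in this gate, 173 of 1467 were higher and 78 lower. The value of 2.55 therefore cannot be set beside those of the other gates. Isg15 went from 389 to 2147 CPM in C1q-high cells and from 514 to 2165 CPM in C1q-low cells, so cells on both sides of the division reached a similar level. Differences between gates in these ratios were not tested.

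Genes known for interferon gamma moved less than those of type I interferon. Of 25 counted genes, 8 were higher and 1 lower (2.64% and 3.84% over all genes), with a median of 0.82. Irgm1, a GTPase of cell-autonomous immunity, stood at 90.6 and 201 CPM (log2 ratio 1.15, 1.07 to 1.22), and Igtp at 57.5 and 123 CPM (log2 ratio 1.10, 1.0 to 1.20), both within the limit in C1q-low cells alone (0.91 and 0.94). The guanylate-binding proteins stayed within the limit, from Gbp8 with 0.09 and Gbp2 with 0.37 to Gbp6 with 0.92. Nos2, the inducible nitric oxide synthase, stood at 108 and 233 CPM (log2 ratio 1.11, 1.04 to 1.18), and within the limit in 3 of 18 alternatives, down to 0.72 with a 3-fold hashtag margin. The 2 chemokines that bind CXCR3 parted ways. Cxcl10 stood at 808 and 2019 CPM (log2 ratio 1.32, 1.30 to 1.35). Cxcl9, which answers mainly to interferon gamma, stood at 801 and 342 CPM (log2 ratio −1.23, −1.27 to −1.19). What set these 2 genes apart was not tested. Outside the 6 gates Cxcl9 had a ratio of −1.45, with 956 and 351 CPM, and Cxcl10 of 1.16. Cxcl9 was seen in 21.8% of thinned control cells and 12.2% of thinned irradiated cells, against 3.49% and 3.70% of NK-gated cells.

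Antigen presentation divided by class. Of 20 class I genes, 1 was higher, the nonclassical H2-T22 at 106 and 220.3 CPM (log2 ratio 1.05, 0.98 to 1.12), and 18 lay above 0 with a median of 0.28. H2-T22 fell short of the limit in 4 of 18 alternatives, down to 0.95. B2m, the shared light chain, stood at 3378 and 4437 CPM (log2 ratio 0.39, 0.38 to 0.41), and the peptide transporter Tap1 at 175 and 266 CPM (log2 ratio 0.61, 0.55 to 0.67). Of 11 class II genes, none passed the limit (0 higher, 0 lower), yet 10 lay below 0 with a median of −0.46. The chains H2-Aa, H2-Ab1 and H2-Eb1 had log2 ratios of −0.87 (−0.89 to −0.85), −0.85 (−0.87 to −0.84) and −0.94 (−0.96 to −0.91), and the invariant chain Cd74 stood at 8405 and 5488 CPM (log2 ratio −0.61, −0.63 to −0.60). H2-Ab1 fell past the limit outside the 6 gates, from 4025 to 1901 CPM (log2 ratio −1.08), and 4 of the 11 genes did so there. Ctss, the protease that trims the invariant chain, was the exception with 0.34 (0.32 to 0.36). The class II median per thinned cell went from 12 to 6 UMIs. Ciita, the master factor of class II transcription, stood at 30.3 and 23.9 CPM, a log2 ratio of −0.34 (−0.51 to −0.18).

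Monocyte genes had a positive and macrophage genes a negative median, with most members of both lists within the limit. Against 2.64% of all genes higher and 3.84% lower, 4 of 15 monocyte genes were higher and 1 lower. Of 17 counted macrophage genes 0 were higher and 3 lower. The medians of these lists were 0.54 and −0.48. The other sign was present in 4 monocyte and 5 macrophage genes. Ly6c2, part of the sorted antigen, stood at 449 and 1484 CPM (log2 ratio 1.72, 1.69 to 1.76), and Plac8, a classical monocyte gene, at 1458 and 3375 CPM (log2 ratio 1.21, 1.19 to 1.23), within the limit in 3 of 18 alternatives, down to 0.88. Ms4a4c, which is also on the interferon list, stood at 289 and 867 CPM (log2 ratio 1.58, 1.54 to 1.62). Ccr2, the receptor that draws monocytes into tissue, had a log2 ratio of 0.08 (0.03 to 0.13), while Cx3cr1, the fractalkine receptor of patrolling monocytes and tissue macrophages, stood at 49.2 and 12.7 CPM (log2 ratio −1.95, −2.15 to −1.76).

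On the macrophage side, Apoe, a lipid carrier, stood at 1333 and 470.0 CPM (log2 ratio −1.5, −1.54 to −1.47), Mrc1 (the mannose receptor CD206) at 176 and 75.3 CPM (log2 ratio −1.23, −1.31 to −1.14) and Folr2 (folate receptor beta) at 19.5 and 6.38 CPM (log2 ratio −1.61, −1.90 to −1.34). C1qa, C1qb and C1qc, the chains of complement C1q, had ratios of −0.95 (−0.99 to −0.91), −0.66 (−0.69 to −0.62) and −0.98 (−1.02 to −0.93), all within the limit over all cells. With a 3-fold hashtag margin they passed it, at −1.37, −1.04 and −1.37. Outside the 6 gates they stood at −1.05, −0.76 and −1.10. Csf1r and Cd68, shared by monocytes and macrophages, had log2 ratios of −0.08 and 0.16, and Maf of 0.45. C1q-high cells made up 27.0% of control and 19.2% of irradiated cells, a difference of −7.83 points (−9.97 to −5.69), and C1q-low cells 57.5% and 61.8%. Within C1q-high cells Apoe still went from 3139 to 1086 CPM and within C1q-low cells from 780 to 315 CPM, so its lower level held on both sides of the division. Mrc1 went from 486 to 197 CPM in C1q-high cells (log2 ratio −1.30) and had a ratio of −0.41 in C1q-low cells. The macrophage list as a whole had a median of −0.56 in C1q-high cells, with 0 of 17 higher and 5 lower, and of −0.01 in C1q-low cells, with 2 of 16 higher and 1 lower. Ly6c2 was higher on both sides, from 353 to 1678 CPM and from 622 to 1755 CPM. C1qa was seen in 21.9% of thinned control and 14.1% of thinned irradiated cells, and in 3.49% and 1.23% of NK-gated cells.

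Genes of lipid-laden and repair macrophages did not follow a common course. Of 18 lipid-associated genes 0 were higher and 1, Apoe, lower, with a median of 0.31. Spp1 (osteopontin) stood at 1525 and 2655 CPM (log2 ratio 0.80, 0.78 to 0.82) and Trem2, the lipid receptor, at 137 and 98.2 CPM (log2 ratio −0.48, −0.56 to −0.40). The scavenger receptors Msr1 and Cd36 had log2 ratios of 0.66 and 0.73, and Abcg1, a cholesterol exporter, of 0.82. Of 18 counted genes of efferocytosis and wound repair, 6 were lower and 0 higher, against 3.84% and 2.64% of all genes. Gas6, the bridge between dying cells and the receptors Axl and Mertk, stood at 13.7 and 1.52 CPM (log2 ratio −3.14, −3.74 to −2.66). Igf1 stood at 7.35 and 1.96 CPM (log2 ratio −1.88, −2.42 to −1.41) and Pdgfb at 21.2 and 9.95 CPM (log2 ratio −1.09, −1.33 to −0.86), both growth factors, Pdgfb passing into the limit with TMM factors (−0.92). Axl itself had a log2 ratio of −0.41 and Mertk of 0.29, and Tgm2, a transglutaminase, of 0.85. Of the complement list only Cfb (factor B) was higher, at 126 and 289 CPM (log2 ratio 1.20, 1.13 to 1.26) (within the limit in 3 of 18 alternatives, down to 0.90), and Cd55, which restrains complement, was lower at 5.71 and 2.28 CPM (log2 ratio −1.31, −1.83 to −0.85). Among 6 Fc receptor genes, Fcgr1 (the high-affinity receptor CD64) stood at 221 and 532 CPM (log2 ratio 1.27, 1.22 to 1.32) and was alone past the limit.

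**Figure D3:**
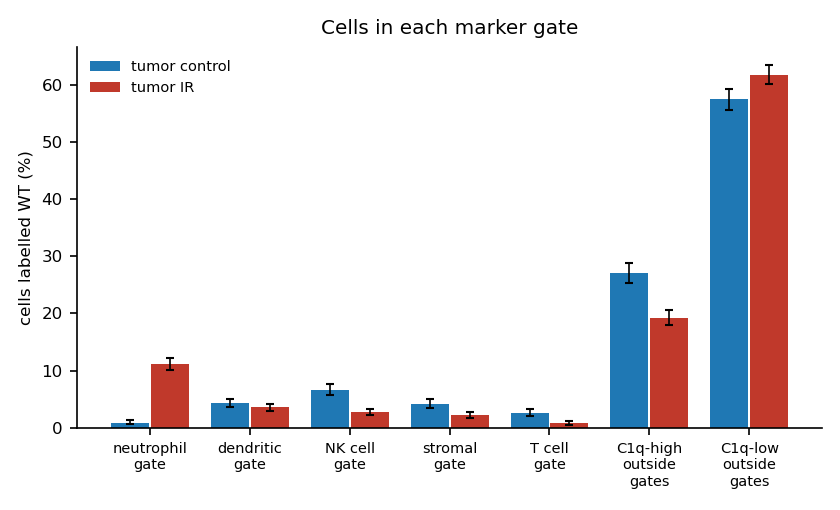
Share of cells labelled WT (y axis, %) in each marker gate, tumor control (2703 cells) and tumor IR (3367 cells), with 95% Clopper-Pearson intervals; C1q-high and C1q-low cells are those outside the 6 gates, and the B cell gate (0 and 1 cells, 0 of 2703 allowing up to 0.111%) is not drawn. The neutrophil gate stands at 0.888% and 11.1%, and the NK cell, T cell, stromal and C1q-high shares are lower in tumor IR.

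Neutrophil genes had the highest list median. Of 15 counted markers 10 were higher and 0 lower, with a median of 2.77, and together they went from 789 to 3188 CPM. S100a8 and S100a9, the 2 chains of calprotectin, stood at 82.3 and 599.7 CPM (log2 ratio 2.86, 2.79 to 2.94) and at 93.5 and 1020.3 CPM (log2 ratio 3.45, 3.38 to 3.51). G0s2, a lipase inhibitor abundant in neutrophils, stood at 14.3 and 308 CPM (log2 ratio 4.43, 4.27 to 4.60), and Cstdc4, a stefin gene, at 4.9 and 138 CPM (log2 ratio 4.81, 4.54 to 5.11). Stfa2l1 of the same family had the highest ratio of the list, from 0.862 to 41.2 CPM. The receptor Cxcr2 went from 2.49 to 29 CPM, Mmp9 (gelatinase B) from 1.54 to 21.4 CPM and Hdc (histidine decarboxylase) from 17.2 to 118 CPM. Of the granule genes on this list, Ngp had 0 and 1 UMIs, Ltf 10 and 41 and Camp none. Lcn2 of the same list was higher, with a log2 ratio of 1.31. It stayed past the limit in 14 of 17 alternatives, though not without neutrophil-gated cells. Acod1, which makes itaconate and is shared with activated macrophages, stood at 119.7 and 324 CPM (log2 ratio 1.44, 1.37 to 1.5) over all cells and at a ratio of 0.57 outside the gates. The gate built on this list held 24 control cells (0.888%, 0.570 to 1.32) and 373 irradiated cells (11.1%, 10 to 12.2), a difference of 10.2 points (9.09 to 11.3). Cells of this gate were small in UMIs, with medians of 1969.5 and 2067, so they gave 0.378% and 4.94% of all UMIs, and 15 and 143 cells lay within 2-fold of the cut. Outside all gates the same markers had a median of 0.52, though there the gate itself had removed the cells richest in them. Of 11 markers counted there, 4 were higher and 0 lower. S100a9 still went from 1.80 to 68.2 CPM (log2 ratio 5.20), G0s2 from 2.21 to 29.9 CPM (3.73) and S100a8 from 16.4 to 71.1 CPM (2.11). S100a8 was seen in 2.22% of thinned control and 12.9% of thinned irradiated cells, against 0 of 172 (up to 1.74%) and 4 of 81 (4.94%) NK-gated cells. Of 13 metalloproteinases Mmp9 alone passed the limit, and their median was 0.44. Basophil and mast cell markers were too few to count: Mcpt8 had 0 and 54 UMIs, 98.1% of the latter in 1 cell.

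Chemokines as a group went from 13061 to 22922 CPM. Of 21 counted genes 6 were higher and 1 lower, with a median of 0.48, and the 10 to 100 UMI barcodes held 22281 and 23914 CPM of them. Among the neutrophil-attracting ligands, Cxcl2 stood at 4586 and 9360.5 CPM (log2 ratio 1.03, 1.02 to 1.04) and Cxcl3 at 357 and 1309 CPM (log2 ratio 1.87, 1.84 to 1.91), while Cxcl1 was at 648 and 519 CPM (log2 ratio −0.32, −0.36 to −0.29). The related chemokines Ccl3 and Ccl4 stood at 256 and 803 CPM (log2 ratio 1.65, 1.61 to 1.69) and at 556 and 1743 CPM (log2 ratio 1.65, 1.62 to 1.68). These levels leaned on the neutrophil-gated cells, which held 8313 CPM of Ccl3 and 13969 CPM of Ccl4 after IR. Outside all gates Ccl3 had a log2 ratio of 0.67 and Ccl4 of 0.95, both within the limit, and Cxcl3 of 1.40, past it. Cxcl2 was likewise within the limit in 6 of 18 alternatives, down to 0.49. The CCR2 ligands Ccl2 and Ccl7 had ratios of 0.83 (0.80 to 0.85) and 0.70 (0.67 to 0.74), and Ccl2 passed the limit outside the gates, from 1034 to 2329 CPM. Ccl12, a further CCR2 ligand, had a ratio of 0.07 outside the gates, with −0.22 in C1q-high cells and 2.73 in C1q-low cells. Ccl5, which T cells and NK cells also make, stood at 773 and 438 CPM (log2 ratio −0.82, −0.86 to −0.78) over all cells and at 386 and 332 CPM (log2 ratio −0.22) outside the gates. Cxcl3 was seen in 8.37% of thinned control and 26.2% of thinned irradiated cells, against 0.581% and 4.94% of NK-gated cells. Among the receptors, Fpr1 and Fpr2, which sense formyl peptides, went from 5.62 to 28.5 CPM and from 32.0 to 70.0 CPM (Fpr2 within the limit outside the gates, at 0.82), Cxcr6, of T cells and NK cells, from 4.94 to 1.12 CPM, and Ccr1 had a log2 ratio of 0.77.

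Genes tied to suppression of T cells had a median of 0.29 over 21 counted members, with 3 higher and 1 lower. Arg1, the arginase that depletes arginine, stood at 1690.5 and 3015 CPM (log2 ratio 0.83, 0.82 to 0.85), below the limit, and was seen in 37.7% of thinned control and 48.8% of thinned irradiated cells, against 4.65% and 7.41% of NK-gated cells. Arg2 stood at 46.7 and 95.1 CPM (log2 ratio 1.03, 0.92 to 1.14) and passed the limit over all cells, but not in 6 of 18 alternatives: its ratio was 0.78 without neutrophil-gated cells, 0.65 outside the gates and 0.48 in C1q-low cells. Cd274 (PD-L1, the ligand of PD-1) stood at 158 and 325 CPM (log2 ratio 1.04, 0.98 to 1.10), and was within the limit in 7 of 18 alternatives, with a ratio of 0.79 outside the gates. Il10, the suppressive cytokine, was the lower member at 15 and 3.93 CPM (log2 ratio −1.92, −2.29 to −1.59). Vegfa and Tgfb1 had log2 ratios of 0.02 (−0.01 to 0.06) and 0.32 (0.28 to 0.37), Thbs1 (thrombospondin 1) of 0.59, and the NADPH oxidase genes Cybb, Cyba, Ncf1 and Ncf4 lay between 0.20 and 0.45. Among 17 checkpoint and costimulation genes 3 were higher: Cd274, Lgals9 (galectin 9) at 87.7 and 220.0 CPM (log2 ratio 1.33, 1.25 to 1.40) and Tnfsf10 (TRAIL) at 2.99 and 10.4 CPM (log2 ratio 1.79, 1.40 to 2.22). Cd80 and Cd86, the ligands of CD28, had ratios of 0.65 and 0.34, and Tnfsf9 (the 4-1BB ligand) of −0.68.

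NF-kB targets had a median of 0.21 over 28 genes, with 4 higher (Cxcl2, Cxcl3, Ccl3 and Ccl4) and 0 lower. Their sum went from 19045 to 29211 CPM, and in C1q-high cells alone the median was −0.003. Il1b, the most abundant of them in control cells, stood at 6090.4 and 7743 CPM (log2 ratio 0.35, 0.34 to 0.36) over all cells and had a ratio of 0.07 outside the gates. Tnf and Il6 had ratios of 0.30 (0.24 to 0.36) and 0.91 (0.77 to 1.05), and the subunits Nfkb1, Nfkb2, Rel, Relb and Rela lay between −0.11 and 0.09. Il1rn, the receptor antagonist that opposes interleukin 1, stood at 454 and 813 CPM (log2 ratio 0.84, 0.81 to 0.88). Immediate early genes had 0 of 23 past the limit and a median of 0.09, which turned negative without neutrophil-gated cells, with Fos at 0.23, Jun at −0.20 and Ier3 at 0.61.

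**Figure D4:**
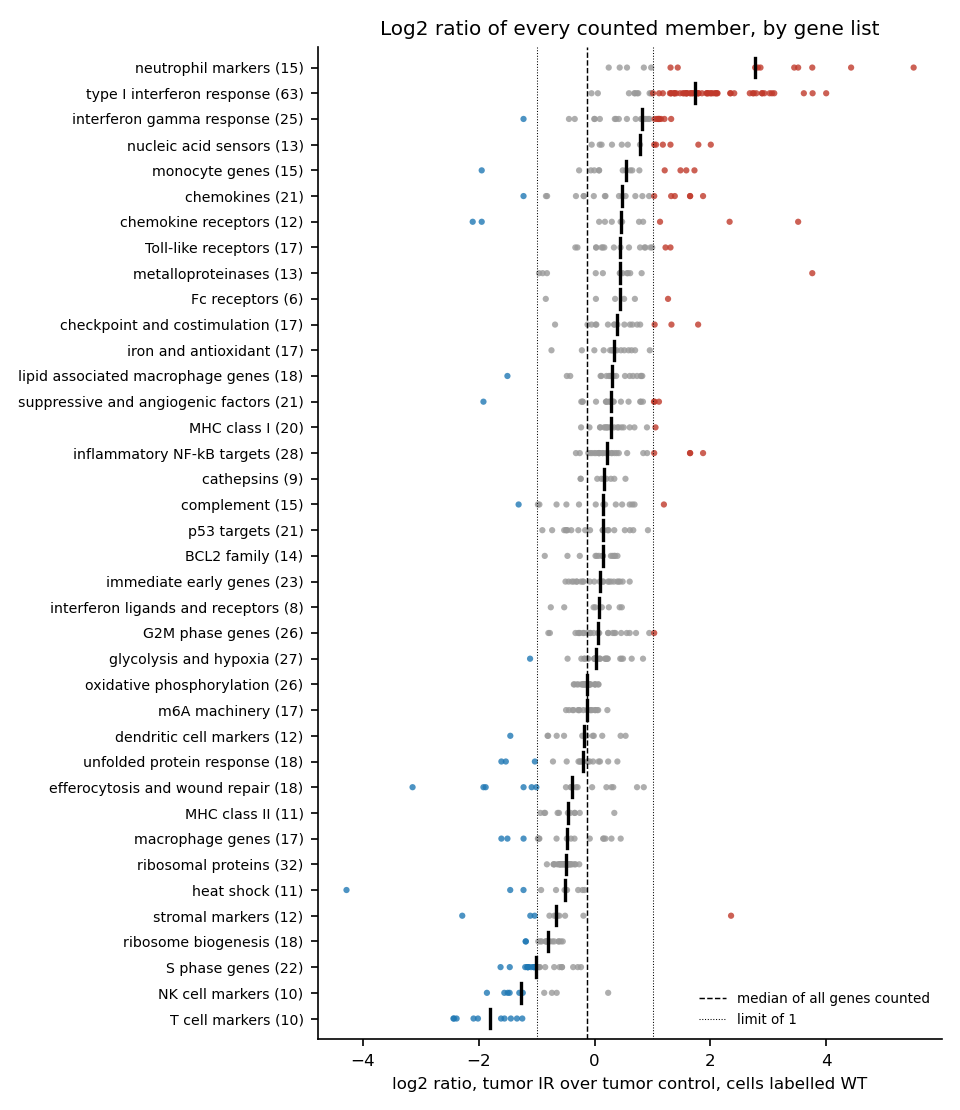
Log2 ratio (x axis, tumor IR over tumor control) of every counted gene of each list with at least 6 counted genes (rows, number counted in brackets), cells labelled WT; red points are at 1 or above, blue points at −1 or below, black bars are list medians and the dashed line is the median of all genes, −0.14. The neutrophil (2.77) and type I interferon (1.73) lists lie at the top and the T cell list (−1.81) at the bottom.

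Markers of lymphocytes and stromal cells, which are not mMDSCs, were mostly lower after IR. All 10 counted T cell markers were lower, with a median of −1.81 and sums of 145 and 41.5 CPM, against 3.84% of all genes lower. Cd3g, a chain of the T cell receptor complex, stood at 23.6 and 4.33 CPM (log2 ratio −2.44, −2.78 to −2.13), and Cd8a at 7.39 and 1.34 CPM (log2 ratio −2.43, −3.08 to −1.90). Of 10 NK cell markers 6 were lower, with a median of −1.27. Nkg7 stood at 127 and 45.8 CPM (log2 ratio −1.47, −1.57 to −1.36), Prf1 (perforin) at 45.6 and 19.3 CPM (log2 ratio −1.24, −1.41 to −1.08) and Gzma (granzyme A) at 317 and 174 CPM (log2 ratio −0.87, −0.93 to −0.81), while the receptor Klrk1 had a ratio of 0.23 (0.13 to 0.34). NK-gated cells numbered 179 (6.62%) and 92 (2.73%), a difference of −3.89 points (−5.01 to −2.82), and T-gated cells 69 (2.55%) and 26 (0.772%). Gzmc and Gzmf, granzymes of activated killer cells, had the lowest ratios of all genes at 50 CPM or more, from 238 to 11.4 CPM and from 62.7 to 0.848 CPM. They came from few cells: Gzmf was seen in 7 thinned control cells and 2 irradiated ones, 46.3% of its control UMIs were in 1 cell, and 14.3% of those of Gzmc. The gates use the marker lists themselves, so the shares of gated cells and the list medians are not separate observations. Stromal markers had a median of −0.66, with 3 lower and 1 higher of 12, and stromal-gated cells were 111 (4.11%) and 75 (2.23%). These held medians of 24650 and 15340 UMIs and gave 13.4% and 7.79% of all UMIs. With a 3-fold hashtag margin the stromal median was 0.18, so its direction rested on the hashtag rule. Of dendritic cell markers 1 of 12 was lower, Cd7, and dendritic-gated cells made up 4.25% and 3.53%, a difference of −0.720 points whose interval held 0 (−1.73 to 0.253). Klrd1 is on both the dendritic and the NK cell list. Dendritic-gated cells held 1454 and 1507 CPM of NK cell markers, so this gate is not separate from the NK gate. Only 2 of 10 carcinoma markers had enough UMIs to count, among them Cdh1 with a log2 ratio of −0.44, and Krt8 and Krt18 had 0 UMIs in both groups, which at this depth allows up to 0.136 and 0.134 CPM. Both counted endothelial markers were higher, Pecam1 at 11.5 and 24.3 CPM (log2 ratio 1.08, 0.86 to 1.30), down to 0.71 in thinned cells, and Kdr at 1.32 and 4.11 CPM (log2 ratio 1.61, 1.03 to 2.30), and both counted B cell markers lay within the limit.

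Cell cycle genes were lower for S phase, and for G2/M the median depended on which cells were summed. Of 22 S phase genes 11 were lower and 0 higher, all 22 lay below 0, and the median was −1.01. This median kept its sign in all 18 alternatives but was past the limit in only 8 of them, and was −0.38 in thinned cells. Dut, which clears dUTP, stood at 85.8 and 31.1 CPM (log2 ratio −1.46, −1.59 to −1.34), the replication licensing gene Mcm5 at 24.8 and 11.2 CPM (log2 ratio −1.15, −1.37 to −0.93), Rrm2 (ribonucleotide reductase) at 19.4 and 8.75 CPM (log2 ratio −1.14, −1.40 to −0.90) and Uhrf1 at 18 and 5.8 CPM (log2 ratio −1.62, −1.93 to −1.34). Mcm5 and Rrm2 came within the limit with TMM factors (−0.99 and −0.98). Outside the gates the S phase median was −1.07. Of 26 G2/M genes over all cells, 1 was higher and 0 lower with a median of 0.06, and this depended on the stromal-gated cells, where the G2/M median was 1.32. Without them it was negative, and outside all gates it was −0.78 with 6 of 24 genes lower. In C1q-high cells only 9 of the 26 G2/M genes had enough UMIs to count. Their median was −2.82 with 6 of 9 lower, against 216 of 7142 of all genes there. Genes can reach the minimum mainly through control cells, such as Mki67 with 287 and 25 UMIs. This median therefore does not stand for the whole list, whose sum there went from 667 to 399 CPM. Mki67 stood at 49.2 and 28.8 CPM (log2 ratio −0.77, −0.91 to −0.63) over all cells and went from 29 to 12 CPM outside the gates. Ube2c, the ubiquitin-conjugating enzyme of the anaphase complex, stood at 43.0 and 87.8 CPM (log2 ratio 1.03, 0.92 to 1.14) over all cells, but had a ratio of −0.16 without stromal-gated cells.

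Ribosome genes lay below 0 as a body, almost all within the limit. All 32 ribosomal protein genes lay below 0, none past the limit (0 higher, 0 lower), between −0.82 for Rpl5 and −0.26 for Rpl41, with a median of −0.50. Their sum went from 84519 to 59438 CPM and the median per thinned cell from 72 to 48 UMIs. The median was −0.49 in C1q-high cells, −0.47 in C1q-low cells and −0.81 in neutrophil-gated cells, where only 24 control cells stood against 373. All 18 ribosome biogenesis genes lay below 0 as well, with 2 lower by the limit, Dkc1 (dyskerin) at 32.3 and 14.1 CPM (log2 ratio −1.19, −1.39 to −1.0) and Polr1b, and a median of −0.80. Npm1 (nucleophosmin) stood at 983 and 569 CPM (log2 ratio −0.79, −0.82 to −0.76), Ncl (nucleolin) at 589 and 355 CPM (log2 ratio −0.73, −0.77 to −0.69) and Myc, which drives these genes, at 32.6 and 20.1 CPM (log2 ratio −0.69, −0.87 to −0.52).

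Stress genes were lower in selected members. All 11 heat shock genes lay below 0, 3 of them past the limit. The inducible Hsp70 genes Hspa1a and Hspa1b stood at 170.0 and 72.6 CPM (log2 ratio −1.23, −1.31 to −1.14) and at 101 and 37.0 CPM (log2 ratio −1.46, −1.57 to −1.34), near copies whose reads may be shared, and the mitochondrial chaperone Hspd1 at 219.5 and 116 CPM (log2 ratio −0.92, −0.99 to −0.85). In C1q-high cells their ratios were −0.26 and −0.30, with 0 of 10 heat shock genes lower, and in C1q-low cells −1.84 and −2.04, with 3 of 11 lower, while with a 3-fold hashtag margin Hspa1a stood at −0.89. Hspb1 was the third gene of the list past the limit over all cells, but 68.4% of its control UMIs came from 1 cell. Of 18 genes of the unfolded protein response 3 were lower, against 3.84% of all genes. These were the amino acid response genes Asns (asparagine synthetase) at 31.9 and 10.4 CPM (log2 ratio −1.61, −1.83 to −1.40), Chac1 at 4.99 and 1.7 CPM (log2 ratio −1.53, −2.13 to −1.01) and Trib3 at 9.07 and 4.42 CPM (log2 ratio −1.03, −1.40 to −0.68). The chaperone Hspa5 had a ratio of −0.12 (−0.15 to −0.09). Phgdh, the first enzyme of serine synthesis, and Atf5 stood at 77.6 and 28.9 CPM (log2 ratio −1.43, −1.56 to −1.30) and at 67.0 and 25.4 CPM (log2 ratio −1.40, −1.54 to −1.26). These calls depended on the hashtag rule: with a 3-fold margin Asns stood at −0.96, Trib3 at −0.35, Phgdh at −0.73 and Atf5 at −0.81, all within the limit. Trib3 was within it in 8 of 16 alternatives, and Atf5 also in C1q-high cells (−0.59). Igfbp4 and Pmp22 were also among the lowest 15, at −1.5 and −1.46.

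Metabolic lists barely moved. Glycolysis and hypoxia genes had 0 higher and 1 lower of 27, with a median of 0.02, and Gapdh stood at 2364 and 2374 CPM (log2 ratio 0.01, −0.01 to 0.02) and Ldha at 1173 and 1088 CPM (log2 ratio −0.11, −0.13 to −0.08). Hilpda and Hif1a had log2 ratios of 0.84 and 0.47. Oxidative phosphorylation genes had 0 of 26 past the limit and a median of −0.12, which TMM factors turned positive. Iron and antioxidant genes had 0 of 17 past the limit and a median of 0.34, with the ferritin heavy chain Fth1 at 20650.3 and 26943 CPM (log2 ratio 0.38, 0.38 to 0.39) and the cystine carrier Slc7a11 at 154 and 299 CPM (log2 ratio 0.95, 0.89 to 1.01). Cathepsins had 0 of 9 past it and a median of 0.16. Among Toll-like receptor genes 2 of 17 were higher, against 2.64% of all genes. These were Tlr3 with 1.31 (0.93 to 1.72) and Tlr6 with 1.22 (0.92 to 1.55). Tlr6 was within the limit without neutrophil-gated cells (0.88), outside the gates (0.74) and in C1q-low cells (0.72).

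Genes of the DNA damage response and of cell survival stayed within the limit. Of 21 counted p53 targets none passed the limit (0 higher, 0 lower), and their median of 0.14 turned negative in 4 of 18 alternatives. Cdkn1a (p21) stood at 921 and 1405 CPM (log2 ratio 0.61, 0.58 to 0.64), Mdm2, which degrades p53, at 111 and 159 CPM (log2 ratio 0.52, 0.45 to 0.60), Bax at 0.14 on the log2 scale and Phlda3 at −0.73. Plk3 had the highest ratio of them with 0.92 (0.83 to 1.01). Of 14 BCL2 family genes 0 passed, with Mcl1 at 0.36 (0.33 to 0.38) and Bcl2 at −0.86 (−1.05 to −0.68). Genes of the m6A pathway, the RNA methylation that YTHDF2 reads, had 0 of 17 past the limit and a median of −0.13, which TMM and DESeq2 factors turned positive. The writers Mettl3 and Mettl14 had ratios of −0.28 (−0.63 to 0.05) and −0.44 (−0.78 to −0.11), the erasers Alkbh5 and Fto of 0.06 (−0.04 to 0.16) and −0.38 (−0.61 to −0.15), and the readers Ythdf1, Ythdf2 and Ythdf3 of 0.22 (0.09 to 0.36), −0.06 (−0.18 to 0.05) and 0.04 (−0.08 to 0.17).

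The cells labelled cKO passed through the same 2 libraries, so free RNA and misread hashtags can reach both labels, and their values are set beside those above without a test. In them 530 of 10978 genes were higher (4.83%) and 1763 lower (16.1%). The type I interferon list had a median of 2.31 there, with 57 of 63 higher, from a lower control sum of 7616 CPM to 25406 CPM after IR. Rsad2 went from 77.4 to 976 CPM and Slfn4 from 9.77 to 230.2 CPM, so the irradiated levels of both labels lay close together and the control levels were further apart. Ly6c2 went from 185 to 1135 CPM, Arg1 from 2437 to 4065 CPM and Apoe from 1587 to 629 CPM. The chemokine list had a median of 0.50 in the cells labelled cKO and of 0.48 in those labelled WT, though single members differed. Ccl5 had a ratio of 0.94 (0.90 to 0.98) in the cells labelled cKO against −0.82 in those labelled WT, Ccl2 of −0.22 (−0.23 to −0.20) against 0.83, and Cxcl1 of −2.04 (−2.07 to −2.0) against −0.32. Tnf had −1.11 (−1.15 to −1.06) against 0.30, and the class II median was 0.00 against −0.46. Marker sums of other cell types also differed between the labels. NK cell markers went from 305 to 603 CPM in the cells labelled cKO and from 779 to 439 CPM in those labelled WT. Stromal markers went from 1629 to 352 CPM and from 977 to 570 CPM. The part of the cell mix in these differences between labels was not tested. In blood, the cells labelled WT from the same kinds of mice had 35 of 9922 genes higher (0.353%) and 91 lower (0.917%), with a type I interferon median of 0.36.

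**Figure D5:**
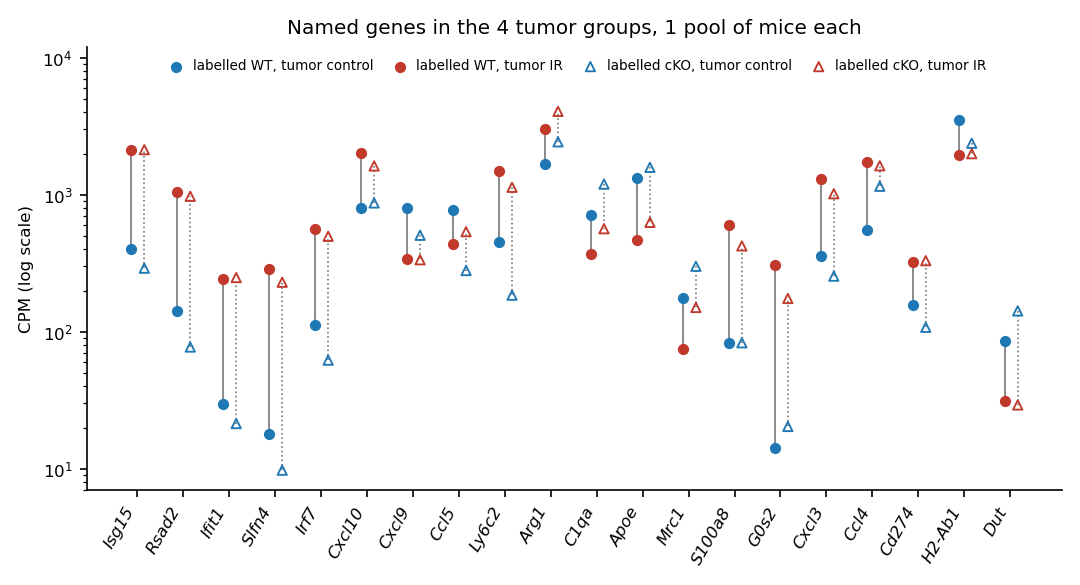
CPM (y axis, log scale) of 20 named genes (x axis) in the 4 tumor groups, filled circles for cells labelled WT and open triangles for cells labelled cKO, blue for tumor control and red for tumor IR, each group 1 pool without replicates. For Isg15, Rsad2, Ifit1, Slfn4 and Irf7 the red symbols lie close together and far above the blue ones. For Ccl5 the 2 labels run in opposite directions, with all cells of each label summed whatever their type.

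A few of the highest and lowest ratios rested on single cells. Igkc, the kappa light chain constant gene of antibodies, had 3 and 4274 UMIs, 4253 of the latter in 1 cell. In all, 20 of the 668 called genes (6.48% of all counted) had more than 20% of the higher group's UMIs in 1 cell. Among the 53 higher type I interferon genes, 1 irradiated cell gave at most 2.38% of a gene's UMIs (Ifi44) and 0.297% of those of Isg15.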

How the data were processed

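Single cells were profiled by droplet sequencing with 2 hashtag antibodies in 4 libraries. The deposited matrices hold raw UMI counts of 32285 genes and the 2 hashtags for every barcode, made by the authors with Cell Ranger 6.0.1 according to their methods, though the matrix header names version 4. UMIs were summed over the cells labelled WT of each tumor library and divided by their total to give CPM. Genes with at least 100 UMIs over both groups entered the comparison, by the log2 of the ratio of their CPM with 1 UMI added and a limit of 1, since 1 library per group allows no test. Intervals of 95% are exact binomial ones (conditional for ratios, Clopper-Pearson for shares, Newcombe for differences) and cover counting error only, as depth (22052400 and 22408082 UMIs) sets it. A count of 0 was taken to allow up to 3. The ratios and intervals were tested on simulated data that held counting error alone, which is the spread the intervals assume. That test cannot show how they cover variation between cells, mice or libraries. Doublets were not removed in the main values; an alternative left out the highest 6% of Scrublet scores, because the caller's own threshold marked almost no cell. Alternatives also changed the scaling, filters, hashtag margin, thinning and cell mix. Named genes were the 15 highest and 15 lowest ratios at 50 CPM or more, 10 each way without neutrophil-gated and stromal-gated cells (both without predicted and mitochondrial genes), the 6 most abundant members and those past the limit of each list, the label genes, and members named for a role. The members, gene lists and rules were chosen with earlier results of these data known. Positions of genes are those of GENCODE vM21 (mm10) and promoters those of RefSeq (GRCm38.p6), matched by symbol. Python 3.11.15 with numpy 2.4.6, scipy 1.17.1, pandas 2.3.3 and scanpy 1.11.5, and R 4.3.3 with edgeR 4.0.16 and DESeq2 1.42.0 for scaling factors only, were used. A few list members that were counted are not reported by name here.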

Additional observations from a re-analysis of the deposited data

Results flagged for a closer look

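Among named genes past the limit in both labels, and among lists whose median was past it in the cells labelled WT, 1 gene and 1 list had opposite signs in the cells labelled WT and cKO. Neither difference was tested, since each group was 1 pool. Ube2c, a gene of mitosis, had a log2 ratio of 1.03 in the cells labelled WT and of −1.25 in those labelled cKO. Outside the 6 gates its ratio in the cells labelled WT was −0.14. The NK cell marker list had a median of −1.27 in the cells labelled WT and of 0.58 in those labelled cKO.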

How the results depend on the processing

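Of 158 named genes past the limit, 106 stayed past it in each of the 18 alternatives in which they had a value (1 of the 18, C1q-low cells alone, was added after the data were seen) and 156 kept their sign. Col5a1 moved to 0.037 with a 3-fold hashtag margin, and Ube2c to −0.16 without stromal-gated cells, −0.14 outside the 6 gates and −4.09 in C1q-high cells. In C1q-high cells 1 NK cell marker had enough UMIs to count, Klrk1 at 0.89, so the list has no median of its own there. The number of lower genes was 230 with TMM and 245 with DESeq2 factors, 198 with a 3-fold hashtag margin, 216 in C1q-high and 170 in C1q-low cells and 103 in thinned cells. With a minimum of 20 UMIs it was 840 (422 higher) and with no minimum 2547 (962 higher). The type I interferon median was 1.89 with TMM factors, 1.88 with DESeq2 factors, 1.83 with a 3-fold margin, 1.57 in C1q-low cells and 1.63 in thinned cells. Medians of 27 of 41 lists kept their sign in each alternative. No paired analysis was possible because each group was 1 library. Depth limits genes of few UMIs, and hashtag assignment, free RNA and the cell mix cannot be separated from IR with 1 library per condition.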
